A study of Mesocricetus auratus with 11 samples.

Results

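Of 8929 stretches of 1 kb of the Syrian hamster genome in which DNA methylation could be read in every library, 839 had lower methylation in the transformed cell line MT2 than in primary fetal cells. These tiles were chosen from 4 of the 11 libraries. A tile was a fixed window of 1000 bp with at least 3 CpGs, forward and reverse strand summed, that had 10 or more reads in all 11 libraries. Its methylation level is the percentage of reads over its CpGs that were methylated. A tile was chosen where the mean of MT2 vehicle replicates 1 and 2 lay 25 or more percentage points (points below) under the mean of primary replicates 1 and 2, with both vehicle libraries under both primary libraries. The mirrored choice found 428 tiles with higher methylation in MT2, and 40 tiles that were 25 points lower had overlapping libraries and were left out. The chosen tiles are 9.4% of the tiles, and this share is fixed by the rule.

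The libraries are reduced representation bisulfite libraries, which read mainly the CpG-rich fragments left by a restriction enzyme after unmethylated cytosines have been converted. The primary group holds 4 female Syrian hamster (Mesocricetus auratus) fetuses of gestation day 13.5, 1 library each. Their cells are a mixture from ectoderm and mesoderm, grown for fewer than 3 days and taken through 1 passage. MT2 is a female line from 1 colony that was morphologically transformed by benzo[a]pyrene at 5 µg/mL, got past senescence, and was used at about passage 28. The vehicle group holds 4 MT2 wells kept for 48 h in 0.05% DMSO. The 5aCdR group holds 3 MT2 libraries after 48 h in 5 µM 5-aza-2'-deoxycytidine. The MT2 wells came from 1 thawed stock, so differences between them measure the spread between wells, and a single line from a single colony cannot stand for transformed cells in general. No transcripts were measured, so the cell types named in the labels could not be checked by markers. The primary cells are a mixture and MT2 is 1 line, and a difference in cell makeup and a change within a cell cannot be told apart by these levels.

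In mammals, a methyl group on the cytosine of a CpG is copied to the new strand after DNA replication by the maintenance enzyme DNMT1, while DNMT3A and DNMT3B place methyl groups anew. 5aCdR is a cytidine analog that is built into replicating DNA and traps these enzymes there, so that methylation is lost over cell divisions. Loss of methylation across parts of the genome with few CpGs is common in transformed and long-cultured cells, while CpG islands are mostly unmethylated in normal cells.

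Reads over CpGs ranged from 17834610 (vehicle 3) to 46148127 (5aCdR 1) per library, and vehicle 2, vehicle 3 and primary 1 were among the shallowest. A chosen tile had a median of 209 reads in its median library and 83 in its shallowest, close to the 208 and 83 of all tiles. These counts, like the library totals and all reads given for a tile, are summed over CpGs. A read that covers more than 1 CpG is counted at each, so fewer reads can lie behind a count. The reads carry no molecular identifiers, so reads can be copies of fewer molecules and no counting interval is given. Over all tiles the median level was 17.6% to 18.5% in the 4 vehicle libraries, 15.0% to 15.8% after 5aCdR and 18.3% to 20.6% in primary cells.

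In the chosen tiles, levels were intermediate in MT2 and high in primary cells. In the libraries of the rule, the median level was 31.1% and 29.3% in vehicle 1 and 2 and 71.8% and 73.1% in primary 1 and 2. In the libraries that had no part in the choice, it was 33.3% and 32.7% in vehicle 3 and 4 and 67.1% and 67.8% in primary 3 and 4. After 5aCdR it was 30.3%, 30.4% and 30.1%. Both vehicle pairs were thus low and both primary pairs high, but the pairs outside the rule lay closer together. From the first to the second pair the median change of a tile was 3.61 points up in vehicle and -4.27 points in primary cells. Few tiles were empty of methylation in MT2. By the mean of vehicle 3 and 4, 47 tiles were below 5%, 181 at 5 to 20%, 267 at 20 to 40%, 224 at 40 to 60%, 96 at 60 to 80% and 24 at 80% or more. In primary 3 and 4, 251 tiles were at 80% or more, 379 at 50 to 80%, 188 at 20 to 50% and 21 below 20%.

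**Figure D1:**
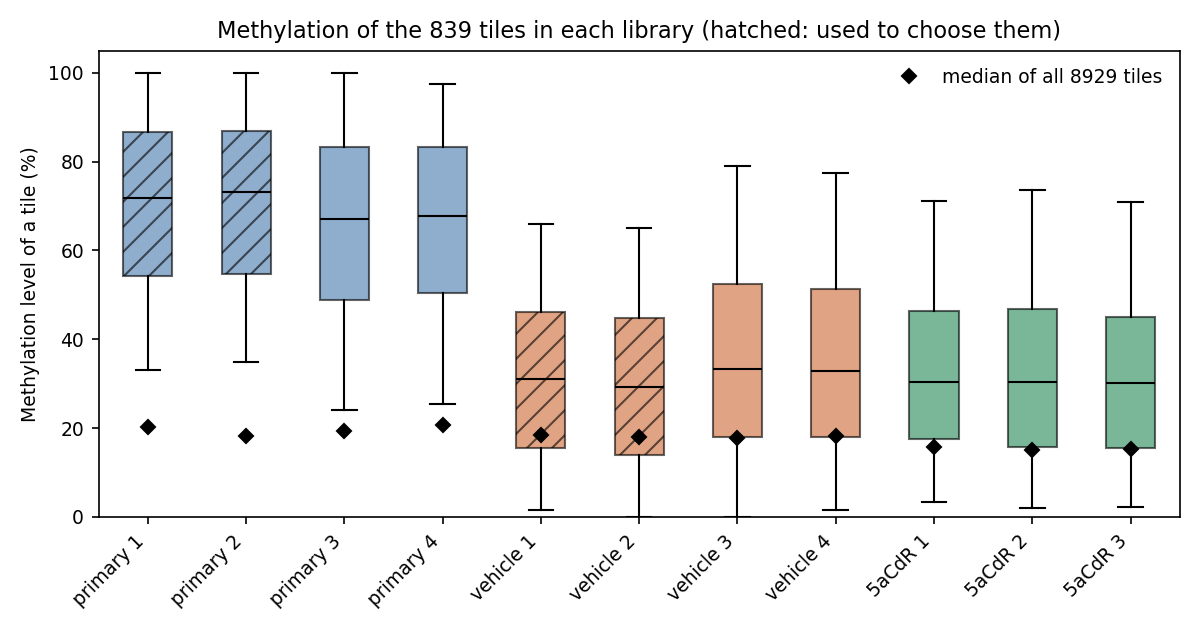
Methylation level (%) of the 839 tiles in each of the 11 libraries; boxes show quartiles and median, whiskers the 5th and 95th percentile, hatching the 4 libraries used for the choice, and diamonds the median of all 8929 tiles. The medians of primary 3 and 4 (67.1% and 67.8%) stand far above those of vehicle 3 and 4 (33.3% and 32.7%), and those after 5aCdR (30.1% to 30.4%) lie slightly below vehicle 3 and 4.

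Whether the lower methylation is found in other wells and other fetuses was asked of vehicle 3 and 4 against primary 3 and 4. It was found in most tiles, with a smaller size. The mean of vehicle was lower in 802 of the 839 tiles and higher in 36. The median difference was -28.35 points (quartiles -40.6 and -17.9, range -89.8 to 42.8), which is 78.8% of the median of -35.96 points in the libraries of the rule. Over all tiles the median difference was 0.0 points and the mean -2.36 points.

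Both vehicle libraries lay below both primary libraries in 668 tiles (79.6%), against 23.2% of all tiles, and both lay above in 7 tiles, against 18.1% of all tiles. The levels were apart in this way by 25 points or more in 479 tiles (57.1%), against 9.67% of all tiles. Of all tiles, 4436 were below 20% in primary 3 and 4 and could not be 25 points lower. Among tiles at 50 to 80% in primary 3 and 4 the share was 62.3% of the chosen, against 22.1% of all tiles. At 80% or more it was 67.3% against 21.4%. Primary 3 and 4 set these classes and also enter the difference. The quasi-binomial test on methylated and unmethylated reads, adjusted by Benjamini-Hochberg over all 8929 tiles, called 264 of the 839 tiles lower (31.5%), against 5.16% of all tiles. It called none of them higher, against 2.69% of all tiles. At an unadjusted p below 0.05, 530 of the tiles were lower (63.2%, against 13.6% of all tiles). The calls rest on all 4 libraries: without vehicle 3, vehicle 4, primary 3 or primary 4 in turn, 0 tiles were called. Then 285 to 366 of the 839 were lower at an unadjusted p below 0.05 (33.97% to 43.6%, against 7.96% to 10.7% of all tiles), and 488 to 498 tiles stayed 25 points apart without overlap. limma on log ratios also called 0, with 343 lower at an unadjusted p below 0.05 (40.9%, against 7.81% of all tiles).

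**Figure D2:**
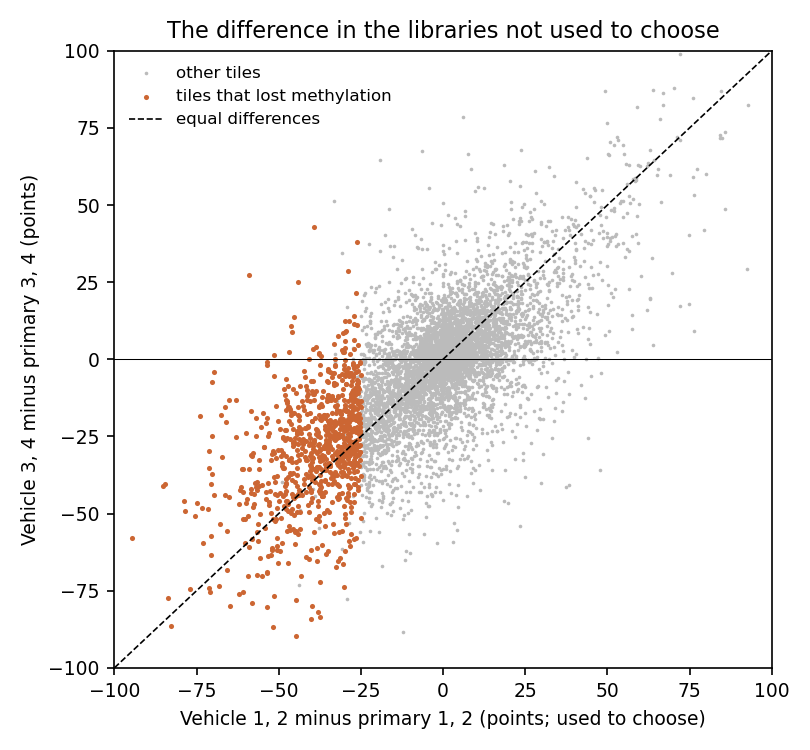
Difference in methylation (percentage points) of vehicle 1 and 2 minus primary 1 and 2, which chose the tiles, on the horizontal axis, and of vehicle 3 and 4 minus primary 3 and 4 on the vertical axis; each point is 1 of 8929 tiles, the 839 chosen ones in orange, and the dashed line marks equal differences. Most chosen tiles lie below 0 on the vertical axis (802 of 839) and above the dashed line, with a median of -28.35 points.

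Tiles that were further apart in the libraries of the rule were also further apart in the other libraries. The 230 tiles at 25 to 30 points had a median difference of -22.33 points in the other libraries, the 292 tiles at 30 to 40 points -26.78 points, the 266 tiles at 40 to 60 points -34.96 points, and the 51 tiles at 60 points or more -46.07 points. The share that was again 25 points lower without overlap was 40.4%, 52.7%, 71.4% and 82.4% in that order. The calls moved with depth more than the size of the difference did. In the quartiles of depth, from the shallowest to the deepest tiles, the median difference was -24.92, -27.95, -29.40 and -30.08 points, and the share of tiles called lower was 11.7%, 15.9%, 31.9% and 66.2%. Over all tiles of the same depths that share rose as well, at 1.54%, 2.49%, 3.87% and 13.4%. The gap between the libraries of a group was wider in the chosen tiles than over all tiles: its median was 10.4 points between vehicle 3 and 4 (4.21 over all tiles) and 9.84 points between primary 3 and 4 (3.29 over all tiles).

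The largest differences among the called tiles without overlap included tiles nearly empty of methylation in MT2. Of the 10 with the largest difference (-89.8 to -78.9 points), a tile on scaffold KB708228.1, 1993001 to 1994000, was the most even across libraries. Its levels were 1.64%, 0.0%, 3.45% and 5.20% in vehicle 1 to 4, 6.49%, 0.0% and 7.67% after 5aCdR, and 86.3%, 81.2%, 89.0% and 92.8% in primary 1 to 4. Each of the MT2 libraries was near 0 and each fetus above 80%, and vehicle 3 and 4 differed from primary 3 and 4 by -86.57 points (adjusted p = 0.001441). Its 3 CpGs, at positions 1993470, 1993512 and 1993535, differed by -96.3, -68.8 and -90.4 points.

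A second tile of this kind, on scaffold KB708353.1, 453001 to 454000, read 1.41%, 6.94%, 3.72% and 1.46% in vehicle, 0.159%, 6.41% and 3.31% after 5aCdR, and 52.2%, 85.6%, 81.0% and 83.8% in primary cells. All MT2 libraries were under 7%, and among the fetuses primary 1 stood apart. The difference in the libraries outside the rule was -79.86 points (adjusted p = 0.001208), with -49.6, -84.0 and -95.2 points at its CpGs at 453016, 453061 and 453078.

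Other tiles of these 10 were uneven across the fetuses or the MT2 wells. The largest difference, -89.8 points (adjusted p = 0.006272), was on scaffold KB708159.1, 6262001 to 6263000, with 16.9%, 16.7%, 8.85% and 8.11% in vehicle and 46.8%, 76.2%, 100% and 96.5% in primary cells. There the 5aCdR wells were higher than all vehicle wells, at 32.8%, 33.2% and 43.0%, a difference from vehicle 3 and 4 of 27.84 points that did not pass the test (adjusted p = 0.423). On scaffold KB708139.1, 19549001 to 19550000, vehicle read 54.4%, 31.7%, 0.0% and 15.2%, and primary cells 100%, 62.0%, 80.9% and 98.0%. This tile was low in all vehicle libraries against all primary ones, but wells of 1 line spanned 54.4 to 0.0%, and the difference outside the rule was -81.83 points (adjusted p = 0.006119). The remaining 6 had differences of -86.64 to -78.91 points with adjusted p between 0.006633 and 0.028295. The calls of these 10 could not be checked with 1 of the 4 libraries left out, as those fits called no tile, chosen or other.

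In the most deeply read tiles the difference was as large in the second set of libraries as in the first. A limit of 1000 reads in every library, added after the values had been seen, left 129 tiles, of which 16 were chosen ones. Vehicle 3 and 4 both lay below primary 3 and 4 in each of these 16, against 68.2% of the 129 deep tiles. Their median difference was -28.81 points in the libraries of the rule and -28.70 points in the others (99.6% of it, range -40.3 to -19.6). All 16 were called lower, against 47.3% of the 129 deep tiles, and 14 were 25 points lower without overlap, against 15.5%. None of these tiles came near 0 in MT2: the mean of vehicle 3 and 4 ranged from 8.33% to 65.1%.

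The deepest of them, on scaffold KB708184.1, 10430001 to 10431000, had a median of 36460 reads per library over 6 CpGs. It read 27.4%, 25.9%, 25.6% and 27.4% in vehicle, 24.0%, 23.8% and 23.9% after 5aCdR, and 54.6%, 54.3%, 55.0% and 53.8% in the 4 fetuses. The 4 libraries of a group lay within 2 points of each other, and vehicle 3 and 4 stood at roughly the same distance from primary cells (-27.9 points, adjusted p = 1.2e-05) as vehicle 1 and 2 (-27.8 points). The tile on scaffold KB709347.1, 10001 to 11000, had the largest difference of the 16. It read 38.2%, 27.3%, 32.0% and 38.3% in vehicle and 70.2%, 70.8%, 71.8% and 79.1% in primary cells, a difference of -40.3 points outside the rule (adjusted p = 0.001208). Both groups were spread over about 10 points and did not overlap.

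**Figure D3:**
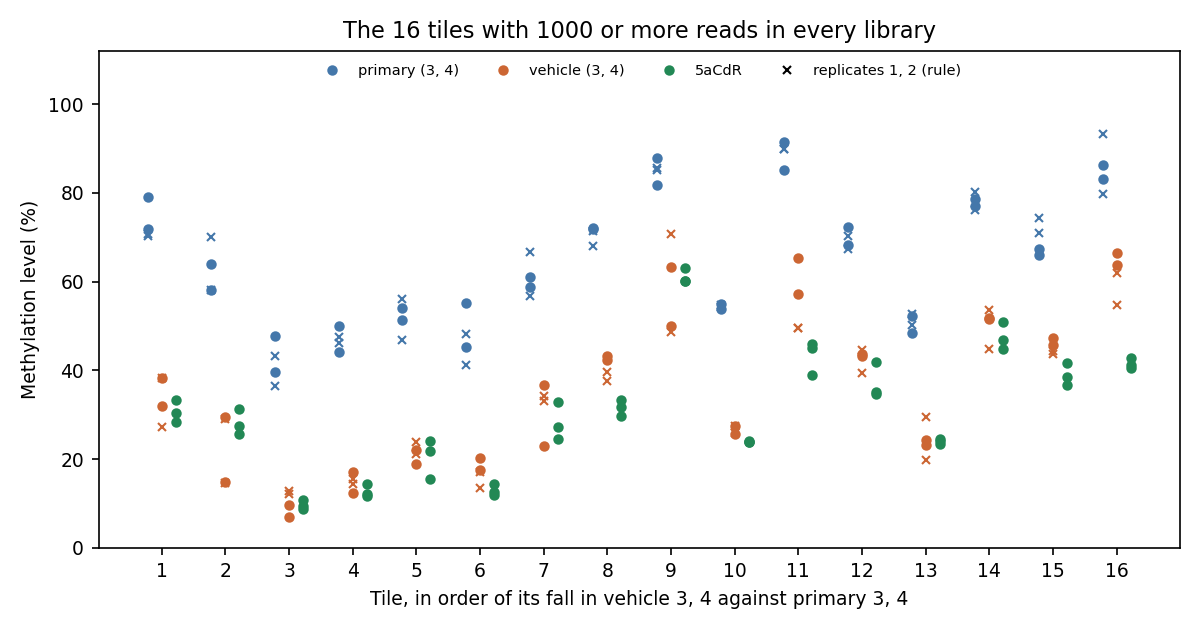
Methylation level (%) of the 16 chosen tiles with 1000 or more reads in every library, in the order of their difference between vehicle 3 and 4 and primary 3 and 4; blue is primary, orange vehicle and green 5aCdR, 1 symbol per library, with crosses for the libraries used for the choice. In all 16 tiles vehicle 3 and 4 lie below primary 3 and 4; for the crosses this order was required by the choice.

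Within a tile the difference was shared unevenly by its CpGs. The 839 tiles hold 2971 CpGs, of which 80.9% were lower in the mean of vehicle 3 and 4 than of primary 3 and 4, against 28.7% of the CpGs of all tiles. By 25 points or more and without overlap, 1344 CpGs (45.2%) were lower, against 8.58% of the 40585 CpGs of all tiles. Every CpG was lower in 442 tiles (52.7%, against 11.5% of all tiles). Every CpG was lower by 25 points or more in 142 tiles (16.9%, against 2.18% of all tiles), exactly 1 CpG was in 230 (27.4%, against 16.1%), and none in 82 (9.77%, against 70.4%). Both vehicle 3 and 4 read 0 at 386 CpGs (13.0%), against 47.5% over all tiles.

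In 488 tiles the mean was lower by 25 points or more. When the CpG of the largest difference was left out, 195 of these (39.96%) came under 25 points, 30 under 10 points, and 5 were no longer lower. The median over the 839 tiles was -18.74 points without that CpG. Taking out the largest value tends to make this measure smaller by its making. As reads are summed anew, this need not hold in each tile. At KB708173.1, 8473001 to 8474000, it went from -28.1 to -28.8 points. Both strands of the same CpG were listed in the 4 libraries at 179 CpGs. The median difference was -27.4 points on the forward and -26.2 points on the reverse strand. Both strands were lower at 109 of the 179 (60.9%), so the strands did not always go together. This share was not counted over the CpGs of all tiles.

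The tile with the most CpGs, 15, was the whole of positions 1 to 1000 on the short scaffold APMT01235590.1. It read 58.8%, 65.4%, 51.2% and 57.6% in vehicle, 52.6%, 56.5% and 41.5% after 5aCdR, and 92.9%, 88.5%, 82.7% and 84.5% in primary cells. All MT2 libraries were below all fetuses, by -29.2 points in the libraries outside the rule (adjusted p = 0.003559). Its CpGs did not move as a block: the CpG at 423 differed by -56.5 points, and that at 878 by 12.8 points. The tile on scaffold KB708152.1, 6090001 to 6091000, with 8 CpGs read 38.1%, 38.1%, 35.5% and 38.5% in vehicle, 39.8%, 35.3% and 31.5% after 5aCdR and 83.4%, 69.1%, 71.8% and 72.2% in primary cells. The 4 vehicle wells were within 3 points of each other and below every fetus, with a difference of -35.0 points outside the rule (adjusted p = 0.001351). Of the other 3 tiles with the most CpGs, KB710303.1, 1 to 1000, and KB708151.1, 15626001 to 15627000, were called lower, by -26.5 points (adjusted p = 0.001368) and -20 points (adjusted p = 0.017518). The tile KB708147.1, 5551001 to 5552000, with 9 CpGs, differed by -28.8 points (adjusted p = 0.062), and by -17.9 points without vehicle 4.

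5aCdR was compared with vehicle 3 and 4 to ask whether methylation in the chosen tiles went down further. The difference was small beside that between MT2 and primary cells. Over the 839 tiles the mean level was 35.8% in vehicle 3 and 4 and 32.7% after 5aCdR, a relative difference of -8.67%. Over all tiles it was -12.4%, and over the 428 tiles with higher methylation in MT2 -15.5%. The median difference of a chosen tile was -2.34 points (range -55.2 to 41.5), against -0.80 points over all tiles, of which 3319 were below 5% in vehicle 3 and 4. The mean after 5aCdR was lower in 509 chosen tiles (60.7%, against 54.5% of all tiles) and higher in 330.

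All 3 5aCdR libraries were below both vehicle libraries in 138 chosen tiles (16.4%), against 17.0% of all tiles, and by 10 points or more in 107 (12.8%), against 12.6%. Both shares are near the background. All 3 were above both vehicle libraries in 57 tiles (6.79%), against 4.33% of all tiles. The quasi-binomial test called 3 chosen tiles lower, against 0.314% of all tiles (28 of 8929), and 0 higher, against 0.0%. At an unadjusted p below 0.05, 56 were lower (6.67%, against 8.65% of all tiles) and 13 higher (1.55%, against 0.806%). limma called 0, with 18 lower at an unadjusted p below 0.05 (2.15%, against 6.20% of all tiles). Without 5aCdR 1, 1 chosen tile was called, against 18 of all tiles. Without vehicle 3 or vehicle 4 the reference is 1 library, and no chosen tile was called. Those fits called almost no tile of any kind, so they cannot tell which calls rest on 1 library. An order without overlap is easier to meet against 1 library. Without vehicle 4, 232 chosen tiles were 10 points lower without overlap, and without vehicle 3, 182. The same counts over all tiles were not made.

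The 3 called tiles had medians of 1496 to 6489 reads per library and levels between 37.6% and 66.3% in vehicle. On scaffold KB708153.1, 4218001 to 4219000, levels were 54.7%, 61.9%, 63.8% and 66.3% in vehicle, 42.9%, 41.1% and 40.5% after 5aCdR, and 93.3%, 79.8%, 83.0% and 86.4% in primary cells. The 3 groups were apart from each other, with 5aCdR under vehicle 3 and 4 (-23.6 points, adjusted p = 0.009997) and vehicle under primary 3 and 4 (-19.6 points, adjusted p = 0.007857). Its CpGs were not alike: the CpG at 4218895 was at 100% and 94.6% in vehicle 3 and 4, 94.1% and 94.97% in primary 3 and 4, and 70.6%, 63.1% and 70.2% after 5aCdR. The CpG at 4218871 was at 34.4% and 31.1% in vehicle 3 and 4, 68.3% and 79.0% in primary 3 and 4, and 21.5%, 22.5% and 13.9% after 5aCdR. The first was high in both vehicle and primary cells and lower after 5aCdR. The second was lower in vehicle than in primary cells, and its 5aCdR levels were below vehicle 3 and 4 but overlapped vehicle 1 and 2, at 21.1% and 25.7%.

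On scaffold KB708147.1, 12145001 to 12146000, vehicle read 61.0%, 61.4%, 63.0% and 61.8%, 5aCdR 46.6%, 45.1% and 46.2%, and primary cells 85.8%, 87.4%, 85.9% and 85.5%. The spread within each group was under 3 points, the difference after 5aCdR -16.4 points (adjusted p = 0.020138) and that between vehicle and primary cells -23.3 points (adjusted p = 0.004115). Here too the CpGs were not alike. The CpG at 12145234 was at 90.6% and 92.7% in vehicle 3 and 4, at 90.5% and 91.5% in primary 3 and 4, and at 71.3%, 65.4% and 68.6% after 5aCdR. The CpGs at 12145274 and 12145295 were under primary 3 and 4 in vehicle 3 and 4 (-49.9 and -48.4 points) and differed after 5aCdR by -6.26 and -5.13 points. In this tile the CpG that was as high in MT2 as in primary cells had the largest difference after 5aCdR. These CpGs were singled out after their values had been seen, and no test was made at single CpGs.

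The third, on scaffold KB708221.1, 7150001 to 7151000, read 37.6%, 39.6%, 43.2% and 42.3% in vehicle, 33.4%, 29.8% and 31.7% after 5aCdR and 68.1%, 71.3%, 71.8% and 72.2% in primary cells. All groups were apart, by -11.1 points after 5aCdR (adjusted p = 0.041665) and by -29.2 points between vehicle and primary cells (adjusted p = 0.000210), and each of its 5 CpGs was lower in the mean after 5aCdR (-7.94 to -19.0 points). Its 5aCdR call was lost when any 1 of the 5 libraries was left out, without tiles of very high coverage (adjusted p = 0.0537) and with 1 strand only (adjusted p = 0.0712). That of KB708147.1 was lost without 5aCdR 1 or 5aCdR 2. Without vehicle 3 or vehicle 4 the reference is 1 library, and the calls of all 3 tiles were lost in fits that called almost no tile.

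How much a tile can lose depends on its level, so the difference after 5aCdR was also described within classes of level. The order of chosen and other tiles was the same by either pair of vehicle libraries below 5% and from 20 to 60%. It turned at 5 to 20% and at 60 to 80%. Others here are the tiles with neither lower nor higher methylation in MT2. By the level in vehicle 1 and 2, libraries of the rule, the median of chosen tiles at 20 to 40% was -1.99 points (283 tiles), against -3.61 points in the others. At 40 to 60% it was -4.86 points (226 tiles) against -7.69, and at 60 to 80% -4.33 points (59 tiles) against -8.79. At 5 to 20% it was -1.85 points (209 tiles) against -0.39, and under 5% 0.40 points (62 tiles) against 0.0. By the level in vehicle 3 and 4, which are also the reference of the difference, it was -1.98 points against -3.70 at 20 to 40% and -5.69 against -7.45 at 40 to 60%. There it was -11.6 points against -9.32 at 60 to 80% and -14.5 against -11.4 at 80% or more. In the low classes of vehicle 3 and 4 it was 1.01 points (181 tiles) against -2.45 at 5 to 20%, and 3.68 points (47 tiles) against 0.05 under 5%. The first classing uses values that chose the tiles and the second values that enter the difference, so neither sets the chosen tiles apart from the others. In the 16 deep tiles the relative difference of the mean level was -13.2%, against -10.8% in the 79 other deep tiles at 10 to 70% in vehicle 1 and 2. The median of the 16 was -3.33 points (range -23.6 to 5.92), 8 were lower without overlap, against 48.1% of the deep tiles, 2 were called lower, against 12.4%, and none was higher without overlap. Whether chosen and other tiles respond differently was not tested.

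**Figure D4:**
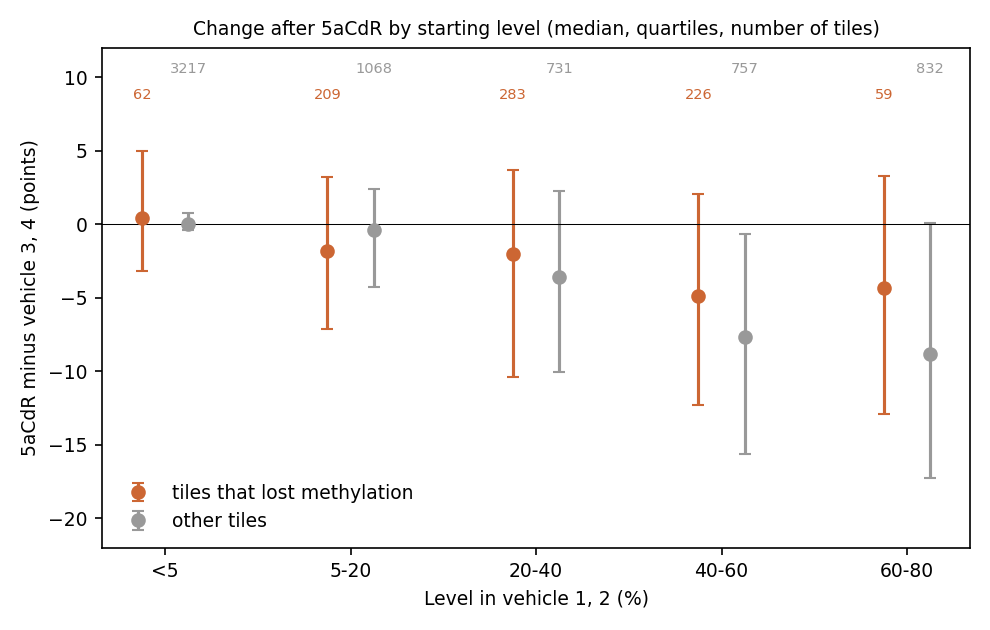
Difference of 5aCdR minus vehicle 3 and 4 (percentage points) by the level of the tile in vehicle 1 and 2 (%), libraries of the rule; points are medians, bars run from the lower to the upper quartile, numbers on top count tiles, orange is the chosen tiles and grey the tiles with neither lower nor higher methylation in MT2. The quartile bars of the groups overlap in each class. When vehicle 3 and 4 set the class, the order of the medians is the opposite at 60 to 80% (-11.6 points in chosen tiles against -9.32) and at 5 to 20% (1.01 against -2.45). It is the same in the other classes shown.

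After 5aCdR the chosen tiles were still below primary cells. The median difference to primary 3 and 4 was -32.3 points, and 559 tiles (66.6%) were 25 points lower without overlap, against 13.1% of all tiles. The comparison shares its primary libraries with that of vehicle 3 and 4.

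The chosen tiles had few CpGs. The median was 3 CpGs per tile that met the read limit, against 4 over all tiles, and 11.9% had 5 or more, against 33.3%. Counting each CpG listed in any library, the median was 6, against 13 over all tiles and 7 over the tiles at 50% or more in primary 3 and 4. By number of CpGs, 551 of 3922 tiles with 3 CpGs were chosen (14.0%), 188 of 2038 with 4 (9.22%), 59 of 1050 with 5 (5.62%), 40 of 1532 with 6 to 9 (2.61%) and 1 of 387 with 10 or more (0.258%). Only a methylated tile can be 25 points lower, and of the 387 tiles with 10 or more CpGs 33 were at 50% or more in primary 3 and 4. Among the tiles at 50% or more in primary 3 and 4 the shares were closer: 21.3%, 18.2%, 16.01%, 12.5% and 3.03% in the same order. A level over fewer CpGs also varies more between libraries, and the part of this in the order was not tested. The difference outside the rule was alike in the classes up to 5 CpGs, at -28.7, -28.4 and -28.0 points, and -23.9 points in the 40 tiles with 6 to 9.

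**Figure D5:**
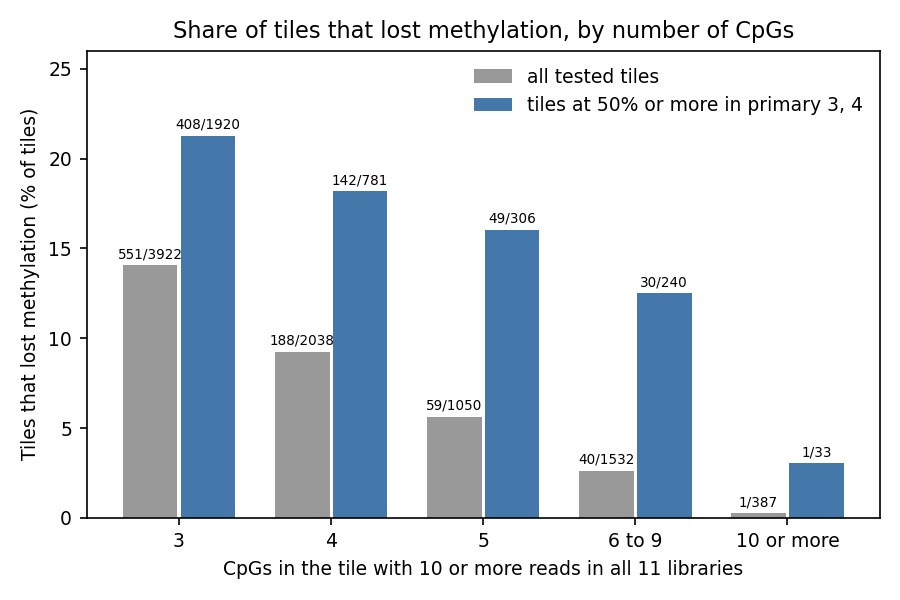
Share of tiles (%) chosen as lower in MT2, by the number of CpGs of the tile with 10 or more reads in all 11 libraries; grey bars are all tested tiles, blue bars those at 50% or more in primary 3 and 4, with chosen over tested tiles printed on each bar. The grey bars go from 14.0% at 3 CpGs to 0.258% at 10 or more, the blue bars from 21.3% to 3.03%.

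The tiles were spread over many scaffolds. A chosen tile lay on 253 of the 670 scaffolds with a tested tile, and on 134 of the 143 scaffolds with at least 20 tested tiles. On those 143 the share of chosen tiles had a median of 8.11%, and it was highest on KB708198.1 with 6 of 24 tiles. The most were on KB708147.1 with 24 of 361 tested tiles, KB708127.1 with 20 of 322 and KB708244.1 with 19 of 88 (21.6%). On KB708244.1 the median over all tested tiles was -7.07 points in the libraries outside the rule, against 0.0 points in the series. Few chosen tiles had an adjacent tested tile: there were 16 such neighbours, too few to read against the share of 9.4%, and none was chosen. Their median difference was -4.91 points. Within 50 kb, 74 of the 318 chosen tiles that had a tested tile there (23.3%) had another chosen one, against 482 of the 4008 other tiles that had one. For the tested tiles around a chosen tile that were not chosen themselves, the median of their mean difference within 50 kb was -0.20 points. Leaving out chosen tiles takes away the largest falls of the rule. This value thus cannot show how far a difference extends, and none around other tiles is set beside it.

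The share of its reads that a library had in a tile was compared as well. This share of reads in vehicle 3 and 4 over that in primary 3 and 4 had a median of 0.07 on the log2 scale over the chosen tiles and -0.01 over all tiles. It was beyond 1.5 times in either direction in 248 chosen tiles (29.6%), against 33.2% of all tiles. In the 591 chosen tiles within 1.5 times the median difference in methylation was -28.14 points, near the -28.35 points of all 839.

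Tiles on either side of the limit of the rule differed by hundredths of a point in the libraries that chose them. The 3 tiles just inside the limit of 25 points were at KB708217.1, 3706001 to 3707000, KB708215.1, 8172001 to 8173000, and KB708206.1, 10533001 to 10534000, and differed by -37.9, -51.4 and -15.5 points in the other libraries. The 3 just outside (-24.99, -24.98 and -24.93 points in the libraries of the rule) were at KB708614.1, 54001 to 55000, KB708251.1, 3402001 to 3403000, and KB708147.1, 16780001 to 16781000, and differed by -33.8, 1.70 and -10.3 points. Single libraries carried some of these values: the difference at KB708206.1 was 0.546 points without vehicle 3 and -31.5 without vehicle 4, and that at KB708251.1 -11.6 without vehicle 4 and 15.0 without vehicle 3.

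A few tiles turned round in the second set of libraries. The largest reversal was on scaffold KB708249.1, 260001 to 261000. Vehicle read 16.7%, 0.0%, 100% and 9.27%, 5aCdR 0.0% in all 3 libraries, and primary cells 64.3%, 30.8%, 0.0% and 23.7%. Vehicle 3 had 59 reads there, against 330, 420 and 453 in vehicle 1, 2 and 4. Primary 3 and 4 also lay below primary 1 and 2. The difference of this tile was 42.8 points (adjusted p = 1.0). Without vehicle 3 it was -2.59 points, against -39.2 points in the libraries of the rule. On KB708174.1, 6808001 to 6809000, the fetuses were split, with 77.8% and 66.7% in primary 1 and 2 and 17.6% and 0.0% in primary 3 and 4, while vehicle read 63.0%, 29.1%, 46.3% and 47.3%. The difference was 38.05 points (adjusted p = 0.111). On APMT01217999.1, 4001 to 5000, primary 1 and 2 at 60.0% and 62.1% stood above primary 3 and 4 at 21.3% and 14.4%, with vehicle at 30.2%, 34.2%, 43.5% and 49.7% and a difference of 28.7 points (adjusted p = 0.114). None of these reversals passed the test. The tile on KB708127.1, 4540001 to 4541000, was at 43.3% and 0.0% in vehicle 1 and 2 but at 100% and 96.5% in vehicle 3 and 4, with 19.6%, 42.3% and 67.5% after 5aCdR. Its difference after 5aCdR of -55.2 points was the largest of any chosen tile and did not pass the test (adjusted p = 0.314), and it was -16.9 points against all 4 vehicle libraries.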

How the data were processed

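Bisulfite libraries of 4 primary fetal, 4 MT2 vehicle and 3 MT2 5aCdR samples were used. The labels' protocol names 4 plates with 5aCdR, and the other is not analysed here. Per the submitters' processing notes the reads were handled with Bismark 0.22.1 and Bowtie2, after bcl2fastq 2.20.0.42 and Trim Galore 0.5.0, and with methylKit 1.10.0 in R 3.6.1, with settings and genome build not given in the sources used here. The files that the authors deposited give, for each strand of a CpG, a read count (coverage) and the percent of C in it, per the file headers. No position under 10 reads is listed, so the sum of both strands can lack one of them. Scaffolds and 1-based positions are named as the files name them. No genome of this build was used, so neither sequences nor genes are given.

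Methylated reads were recovered as coverage times percent, rounded, and strands and CpGs were summed per tile. The test per tile was a quasi-binomial logistic model with 1 group coefficient. Its dispersion was moderated across tiles by limma 3.58.1 in R 4.3.3 and not allowed below 1. The F test was adjusted by Benjamini-Hochberg over the 8929 tiles, with a call at an adjusted p below 0.05. The script was tested on simulated data. Tables were made with Python 3.11.15, numpy 2.4.6 and pandas 2.3.3. Alternatives were a minimum of 20 reads, 5 CpGs per tile, the mean of CpG levels, an upper limit on coverage, 1 strand, a limit of 40 points, dispersion from 7 libraries, none, limma on log2((methylated reads + 1)/(unmethylated reads + 1)), all 4 vehicle libraries, each library left out in turn and a block for the replicate number. Vehicle 1 and 2 and primary 1 and 2 chose the tiles and enter no main test. Vehicle 1 and 2 enter the alternatives with all 4 vehicle libraries or with replicates 1 to 3, whose values are for that reason no independent measure.

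Tiles named are the 10 with the largest difference among those called lower without overlap in the libraries outside the rule. Further named are the 5 with the largest fall after 5aCdR without overlap at 20% or more in vehicle 3 and 4 (called ones first), the 5 with the most CpGs, runs of adjacent tiles (there were none), 3 on either side of the limit and the 3 with the largest rise. All needed 30 reads per library. The report gives some in full. Deep tiles were added later. The tiles, classes and named tiles were chosen with earlier results of these data known.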

Additional observations from a re-analysis of the deposited data

Results flagged for a closer look

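In groups of 4 libraries, 5 of 58 groups held a library whose gap to the next was wide against the range of the group. The groups were the vehicle and the primary libraries, for each named tile and for the median level of the chosen tiles. Named tiles were picked for their values, so no rate by chance can be set beside this count. In vehicle, KB708188.1, 7392001 to 7393000, had its highest level in vehicle 1, at 22.4%, with the others at 1.03% or less. KB708249.1, 260001 to 261000, had its highest in vehicle 3, at 100%, with the next at 16.7%. KB708217.1, 3706001 to 3707000, had its highest in vehicle 1, at 28.9%, with the next at 13.4%. KB708152.1, 6090001 to 6091000, had its lowest in vehicle 3, at 35.5%, with the next at 38.1%, a gap of few points in a tight group. In primary cells, KB708353.1, 453001 to 454000, had its lowest level in primary 1, at 52.2%, with the next at 81.0%. Vehicle 1 and primary 1 are libraries of the rule, and vehicle 3 is not.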

How the results depend on the processing

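For vehicle 3 and 4 against primary 3 and 4, the 264 tiles called lower became 31 of 100 chosen tiles with 5 or more CpGs, 128 of 317 with a limit of 40 points, 16 of 16 deep tiles, 761 by the binomial model without dispersion and 0 by limma. The 479 tiles 25 points lower without overlap became 187 of 296 with a minimum of 20 reads and 58 of 100 with 5 CpGs. They became 232 of 317 with 40 points and 14 of 16 deep tiles. Over all tiles the share was 9.67%, also with 40 points, and it was 15.5% of the deep tiles. It was not counted over all tiles with 20 reads or 5 CpGs. The median of -28.35 points became -30.27 with 20 reads, -27.77 with 5 CpGs, -27.31 with the mean of CpG levels, -29.71 with 1 strand and -37.21 with 40 points. Leaving out 1 library gave medians of -29.06 to -28.75 and 488 to 498 tiles without overlap. That order is easier to meet for a group of 1 library, and it was not counted over all tiles. In those fits a group of 1 library is assumed to vary like the other, and they called no tile, chosen or other. For 5aCdR, the 3 called tiles became 1 with 5 CpGs and 0 with 40 points. The binomial model called 307 of the chosen tiles, limma 0, and the fit against all 4 vehicle libraries 5. With a 5aCdR library left out, 1 to 2 were called. The 107 tiles 10 points lower became 42 with 20 reads, 11 with 5 CpGs and 32 of 317 with 40 points (10.1%). They became 32 against all vehicle libraries, 3 deep tiles, and 139 to 232 with a library left out. Over all tiles the share was 12.6%, also with 40 points. It was not counted over all tiles in the other settings. The median of -2.34 became -3.97 with 5 CpGs, -2.77 with the mean of CpG levels, -1.81 with 1 strand, -1.69 with 40 points, -0.79 against all vehicle libraries and -3.33 in deep tiles, and -3.07 to -1.79 with a library left out. Over all tiles, 461 calls lower became 2943 without dispersion, 375 with 20 reads, 73 with 5 CpGs and 0 by limma. After 5aCdR, 28 calls lower over all 8929 tiles became 3484 without dispersion, 0 by limma and 147 against all 4 vehicle libraries. With 5 CpGs they were 23 of 2969 tiles.

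With the replicate number as a block, 226 chosen tiles were called lower against primary cells, against 391 of all 8929 tiles. After 5aCdR the block gave 2 chosen tiles, against 73 of all tiles. Without the block over replicates 1 to 3 it was also 2, against 46 of all tiles. Deviations of same-numbered libraries were not related (r = 0.009 over tiles for vehicle and primary, -0.026 to -0.007 for vehicle and 5aCdR). Between vehicle and 5aCdR libraries of different number, r was -0.007 to 0.025. Whether libraries of the same number share a plate or day cannot be told from these values. Of 29 values of named tiles, the sign changed at KB708206.1 without vehicle 3 (0.546 points, and -31.5 without vehicle 4), KB708251.1 without vehicle 4 (-11.6, and 15.0 without vehicle 3) and KB708249.1 without vehicle 3 (-2.59, and 88.1 without vehicle 4), and the cause was not tested. With few libraries and reads that may be copies, a tile of common depth needs a wide difference to be called.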
